A study of Arabidopsis thaliana with 14 samples.

Results

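The annotated cut-and-paste DNA transposons of the HAT, Harbinger, Mariner, Pogo and Tc1 superfamilies were followed in the transcriptome of developing Arabidopsis siliques. The members were taken from the superfamily column of the count tables, without use of any count, numbering 2004 of the 31189 transposable elements (TEs) and of the 109972 features counted in all. HAT contributed 1035 members, Harbinger 379, Pogo 344, Mariner 151 and Tc1 95. Messenger RNA had been extracted from 3 siliques per library, 6 to 9 days after anthesis, from Col-0 plants grown under a 16-h photoperiod.

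The 14 libraries fell into 5 groups. The WT group (2 libraries) carried no mutant allele, and the jas-3 group (2 libraries) carried the jas-3 allele of JASON, whose loss yields unreduced pollen, so that selfed plants set a mixture of diploid seeds and triploid seeds that often collapse (the triploid block). The DMSO group (3 libraries) was jas-3 that had received the solvent, and the Aza1 groups were jas-3 descended from 1 line treated with 5-Azacytidine, a cytidine analog that blocks maintenance of DNA methylation, sampled in generation eM2 (3 libraries) and eM3 (4 libraries, from different plants of the line). The sample labels call these Aza1 generations eM1 and eM2, and the names of the paper are used here. Thus DMSO, Aza1 eM2 and Aza1 eM3 shared the jas-3 allele, all Aza1 libraries shared 1 ancestor, and each silique pooled seeds with maternal tissue. In the groups with the jas-3 allele the seeds were of more than 1 ploidy. In WT the paper saw no peak of diploid pollen, so seed ploidy also differed between WT and the other groups. In such bulk samples, fewer cells of a type and less RNA per cell cannot be told apart.

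JASON itself had 14 counts in each WT library, 188 and 225 in jas-3, and between 80 and 196 in the other libraries. Its counts were thus higher in all the groups labelled as mutant, and the labels do not place the insertion within the gene, so that this gene does not check the allele. Every comparison below that names jas-3 therefore sets the libraries labelled jas-3 against the libraries labelled WT.

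DNA transposons of these superfamilies move by excision and reinsertion. Their autonomous copies encode a transposase that binds inverted repeats at the ends of the element, and short nonautonomous copies, which form most of the annotated members, depend on it. A duplication of the target site is left on both sides of an insertion, and its length is typical for the superfamily. In plants such elements are usually silenced by DNA methylation and by small RNAs, and transposases have also been domesticated, as in DAYSLEEPER (hAT-derived) and ALP1 (Harbinger-derived).

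The ends of a few members are shown because the results turn on these copies and because the same 8 bases stand on both sides of each. Sequences were read from the TAIR10 genome on the + strand, 5′ to 3′. Capitals mark the 8-base sequence that flanks a HAT element on both sides. AT1TE08240 and AT1TE20315 are TAG2 copies of chromosome 1, and AT5TE56560 is a TAG2 copy of chromosome 5 for which only the last end is given. The 8 bases after it also precede its first end, once the annotated last end is moved by 1 base. AT5TE56565 and AT5TE56575 are annotated as SIMPLEHAT1 and lie on the 2 sides of AT5TE56570, which is annotated as ATHAT1. The same 8 bases stand at the start of the first and at the end of the last. Whether the 3 rows form 1 element, or AT5TE56570 is a separate insertion, was not tested.
AT1TE08240, first end, chr1:2531443-2531468: GACATGGAtagaagtgtcaattgggc
AT1TE08240, last end, chr1:2534764-2534789: gaccatttgacacttctaGACATGGA
AT1TE20315, first end, chr1:6273515-6273540: GATTGGACtagaagtgtcaattgggc
AT1TE20315, last end, chr1:6276111-6276136: gaccatttgacacttctaGATTGGAC
AT5TE56560, last end, chr5:15639159-15639184: gaccatttgacacttctaATTGCTTT
AT5TE56565 to AT5TE56575, first end, chr5:15639642-15639667: ATATTGTCtagggatgttgtggtggg
AT5TE56565 to AT5TE56575, last end, chr5:15641022-15641047: ctatcattaacatccctaATATTGTC

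The inner ends of the TAG2 copies were the same letters, whereas the capitals differed from copy to copy. A repeated 8-base flank of this kind, allowing each annotated end to be off by up to 3 bases, was found at 74 of 1035 HAT members (7.15%), at 6 of the 969 members of the other superfamilies (0.619%) and at 391 of 29185 other TEs (1.34%). Most HAT members thus lacked a flank that could be recognised at their annotated ends.

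For Harbinger, the ends of 2 HARBINGER copies are shown because both had their highest counts in Aza1 eM2 libraries, as described further on. Capitals mark the motif CCTGTTTGTTTG at the first end and its reverse complement at the last end.
AT4TE54750, first end, chr4:11834124-11834153: ttaaggtCCTGTTTGTTTGtccatttggat
AT4TE54750, last end, chr4:11838627-11838656: aaatgatCAAACAAACAGGgcctaaatcgt
AT1TE29570, first end, chr1:9175318-9175347: aagatacttaggtCCTGTTTGTTTGgccat
AT1TE29570, last end, chr1:9177737-9177766: taattccaaatgatCAAACAAACAGGacct

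Searched on both strands, this motif occurred in 17 of 379 Harbinger members (4.49%), namely 8 of 90 HARBINGER copies and 9 of 116 SIMPLEGUY1 copies, and in none of the 173 ATIS112A copies. It was absent from the HAT, Mariner, Pogo and Tc1 members and was present in 3 of 29185 other TEs (0.0103%).

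The superfamilies also differed in composition. The median GC content was 33.6% in HAT and 31.5% in Harbinger, against 19.4% in Mariner, 20.5% in Pogo and 19.5% in Tc1. In Mariner, 85 of 151 members (56.3%) had no CpG dinucleotide at all, as did 47 of 95 Tc1 members (49.5%). The median length ranged from 242 bases in HAT to 367.5 bases in Pogo, and single members were between 20 and 8407 bases long.

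Many of the members were not detected at this depth. Of the 2004, 976 had 0 counts in every library and 1028 had at least 1 count. The gene rows of a library held between 40526464 and 43974069 counts, and all members together between 8117 and 18813. Only 206 members passed the filter on low counts and were tested, namely 93 of HAT, 76 of Harbinger, 12 of Mariner, 19 of Pogo and 6 of Tc1. Because the filter asks for counts in the smallest groups, a member could pass through 1 high group, so these 206 do not stand for all members.

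Much of the signal lay inside genes. Gene rows overlapped 240 of the members but 116 of the 206 tested ones, and the overlapping members held 69.3% of the 201347 member counts. This share was 85.8% in Harbinger and 94.1% in Mariner, compared with 49.1% in HAT, 51.0% in Pogo and 40.7% in Tc1. Conversely, 1118 members lay at least 500 bases from any gene, and 54 of these were tested.

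The member with the most counts was AT2TE16940 (ATHAT10, 1742 bases, chr2:4005636-4007377), which overlaps annotated pseudogenes 6375 bases from the nearest gene row and held 33.5% of all HAT counts. Its counts were 741 and 655 in WT, 2815 and 1770 in jas-3, 2246, 2198 and 1985 in DMSO, 2029, 2407 and 1614 in Aza1 eM2, and 2354, 1891, 2784 and 2062 in Aza1 eM3. Both WT libraries were below all the others. The level was higher in jas-3 than in WT by a log2 fold change of 0.87 ± 0.16 (SE, edgeR, adjusted p = 1.77e-03), which did not reach the 2 log2 units asked for below.

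A large shift in library composition stood beside every comparison with WT. The 8 seed storage protein genes examined took 36.7 to 42.5% of the gene counts in WT and 7.97 to 30.7% in the other libraries. Scaling by the gene counts alone therefore placed the median of all tested rows 0.80 log2 units higher in the jas-3 against WT contrast than did TMM scaling, which balances the bulk of the genes, 0.71 higher for DMSO against WT and 0.26 lower for Aza1 eM2 against DMSO. Levels are given as counts per 1000000 gene counts (CPM), and then with the gene counts multiplied by the TMM factor (TMM-scaled CPM). Of the marker lists, the CPM sums of endosperm, seed coat, fruit wall and the storage genes did not overlap between WT and jas-3. The storage genes were lower in jas-3. The sums of the silencing and domesticated genes described further on did not overlap either. The share of all features without such overlap was not counted. The summed level of the 4 endosperm markers was 13.5 to 17.3 CPM in WT (with 1 of the 4 at 0), 86.7 to 122 in jas-3 and 76.5 to 127 in DMSO. In Aza1 eM2 it was 51.2 to 53.9 and in Aza1 eM3 54.5 to 88.3. In jas-3 against WT 2 of the 4 were called up. The log2 fold changes of the 4 were all positive, from 0.55 to 13.1, and 3 had an adjusted p below 0.05 (edgeR). The 3 seed coat markers summed to 9.19 to 14.7 CPM in WT and 62.9 to 203 in jas-3, with 1 of 3 called up and log2 fold changes from 0.36 to 3.82. Their sums overlapped between DMSO (39.2 to 106), Aza1 eM2 (15.5 to 42.2) and Aza1 eM3 (17.2 to 65.9). In Aza1 eM2 against DMSO 0 of the 3 were called. The 4 fruit wall markers summed to 1737 to 1987 CPM in WT and 3872 to 5583 in jas-3, but 0 of 4 were called in the TMM-scaled fit, where their median log2 fold change was 0.25 (from -0.71 to 0.96). The sums of the 3 pollen markers overlapped between WT (63.3 to 132 CPM) and jas-3 (68.8 to 73.8), and 0 of 3 were called. In the TMM-scaled fit all 3 were lower in jas-3, with a median log2 fold change of -1.49 (from -1.96 to -1.14). Of these, 2 had an adjusted p below 0.05 (edgeR). The part of these shifts in the results below was not tested, apart from a fit with the storage share as a covariate. For comparisons with WT that fit can hardly separate the share from the group.

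The summed HAT level was 89.0 and 80.1 CPM in WT and 177 and 143 in jas-3. In the DMSO libraries it was 164, 149 and 149, in Aza1 eM2 133, 170 and 126, and in Aza1 eM3 156, 133, 166 and 137. All 12 libraries with the jas-3 allele were thus above WT, and they overlapped each other. The mean was 1.90 times higher in jas-3 than in WT, but 1.10 times higher after TMM scaling.

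Harbinger behaved alike, with 122 and 97 CPM in WT, and 235 and 202 in jas-3. The DMSO libraries had 219, 187 and 173, Aza1 eM2 154, 197 and 140, and Aza1 eM3 204, 166, 202 and 159. The ratio of jas-3 to WT was 2.0 in CPM and 1.16 after TMM scaling. The corresponding ratios of the summed level of all other TEs were 1.40 and 0.810.

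The Pogo sum was 7.55 and 7.31 CPM in WT, 19.3 and 18.2 in jas-3, 19.1, 16.5 and 14.4 in DMSO, 9.90, 10.5 and 10.2 in Aza1 eM2, and 18.2, 12.9, 15.4 and 13.1 in Aza1 eM3. In CPM, WT was lowest, the Aza1 eM2 libraries came next, and both stayed clear of the other 3 groups. After TMM scaling WT (9.89 and 11.5) and Aza1 eM2 (11.2, 9.92 and 11.6) overlapped each other, and both were still below the other 3 groups. The mean in jas-3 was 2.53 times that in WT (1.46 times after TMM scaling), and the mean in Aza1 eM2 was 0.613 times that in DMSO (0.741 after TMM scaling, again without overlap). A single member, AT1TE09365, held 23.0% of the Pogo counts. Without the member of the highest mean count the log2 ratio of jas-3 to WT in CPM went from 1.34 to 0.91, which is close to the 0.93 of Harbinger without its own top member, and that of Aza1 eM2 to DMSO from -0.71 to -0.23.

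Mariner and Tc1 depended on the scale. The Mariner sum was 12.3 and 11.5 CPM in WT and 12.8 and 13 in jas-3, a ratio of 1.08, which became 0.630 after TMM scaling. The Tc1 sum was 3.28 and 3.14 in WT and 3.05 and 2.80 in jas-3, a ratio of 0.911, which became 0.528. On both scales these groups did not overlap. Tc1 was lower in jas-3 on both, whereas Mariner changed order between the scales, so that no direction can be given for it.

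**Figure D1:**
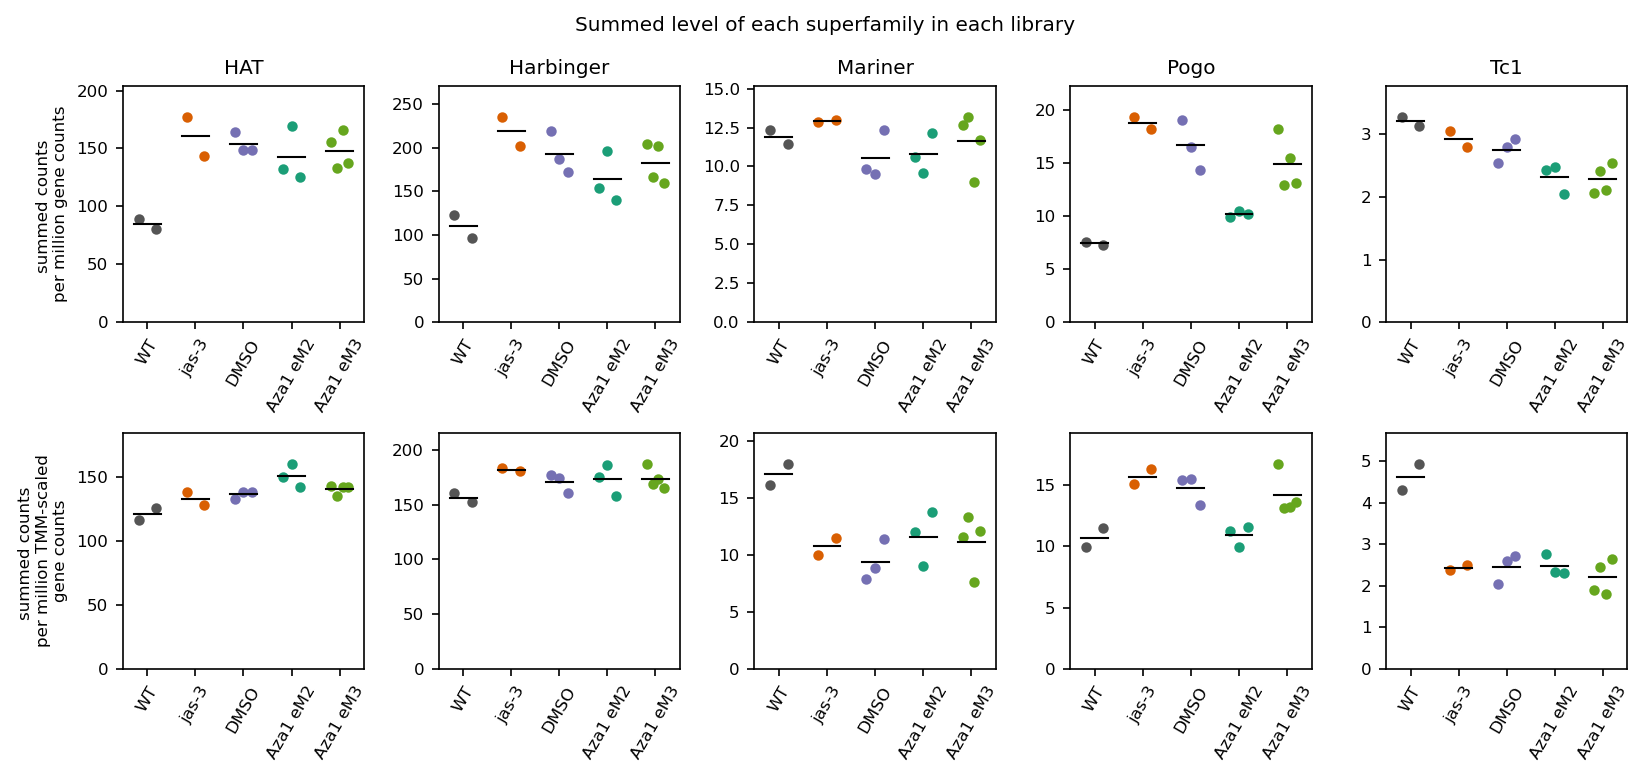
Summed counts of each superfamily in each library, in CPM (upper row) and TMM-scaled CPM (lower row). Points are libraries of the 5 groups and bars are group means. The upper HAT and Harbinger panels put both WT libraries below all others, whereas the lower ones bring the groups to within a ratio of 1.10 and 1.16 for jas-3 against WT, and Pogo is low in WT and Aza1 eM2 in both rows.

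Single members were compared between groups by edgeR's quasi-likelihood test over all 35718 tested rows, and a member was called where its log2 fold change reached 2 in either direction with an adjusted p below 0.01. Between jas-3 and WT, 10 of the 206 members were called up, against 8.05% of all rows, and 13 were called down, against 2.1% of all rows. The members' shares were 4.85% and 6.31%, and those of the other TE rows 13.5% and 2.89%. Members at most 1000 bases apart often shared a call, and the calls fell into 10 loci up and 7 loci down. HAT accounted for 3 of the members called up and 11 called down, Harbinger for 4 and 1, Pogo for 2 and 0, Mariner for 1 and 1, and Tc1 for 0 and 0. The median log2 fold change of the 206 members was 0.06, and that of all rows 0.09. Without WT replicate 2 the counts fell to 4 up and 4 down, without jas-3 replicate 1 to 3 down, and without jas-3 replicate 2 to 7 down. With gene totals in place of TMM they were 21 up and 12 down, so that the share of calls that were up went from 43.5% to 63.6%. With the storage share as a covariate they were 3 up and 0 down. That share did not overlap between WT and the other libraries, so this fit can hardly separate it from a comparison with WT.

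Between DMSO and WT, which share the WT libraries with the former comparison, 14 members were called up (8.73% of all rows and 14.6% of the other TE rows) and 20 down (3.3% and 4.66%). They formed 13 and 14 loci, with 6 up and 12 down in HAT, 5 and 3 in Harbinger, 3 and 2 in Pogo, 0 and 2 in Mariner and 0 and 1 in Tc1. Without WT replicate 2 these counts were 7 up and 3 down, and gene totals gave 24 up and 13 down, which moved the share of calls that were up from 41.2% to 64.9%. Leaving out WT replicate 1 gave 8 up and 11 down, and leaving out DMSO replicate 1 or 2 gave 8 or 10 down.

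Members inside genes carried values close to those of their genes. For jas-3 against WT, 95 of 114 pairs of a tested member and an overlapped tested gene had the same sign (83.3%), the median absolute difference was 0.28 log2 units, and 98 pairs lay within 1 unit. Members outside genes resembled their nearest gene less, with 46 of 67 pairs of the same sign (68.7%) and a median absolute difference of 0.86. Genes and members can share the same reads where they overlap, so the pairs are not independent. Of the 10 members called up in jas-3, 7 overlapped a gene row, and for 6 of them the gene was called up as well. Of the 13 called down, 4 overlapped a gene row, and 6 lay at least 500 bases from any gene. Among all 206 tested members, 116 overlapped a gene row and 54 lay at least 500 bases away.

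**Figure D2:**
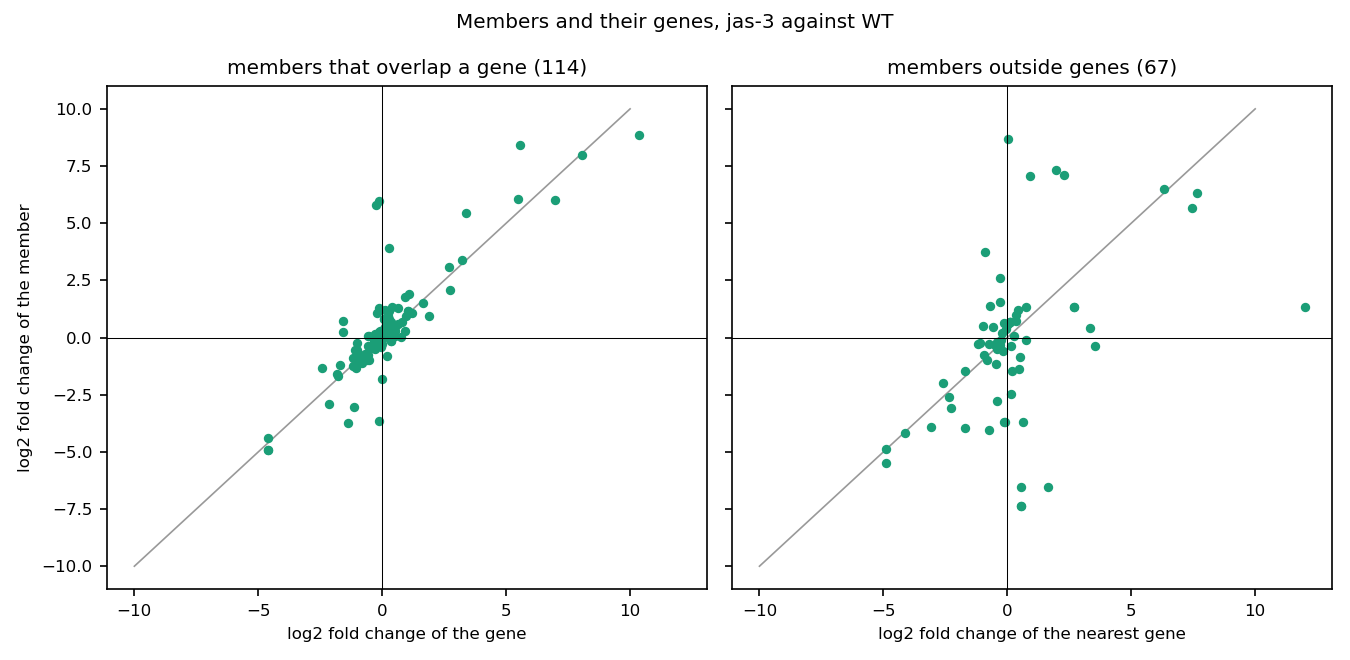
Log2 fold change of jas-3 against WT for each tested member (vertical axis) and for the gene it overlaps (left, 114 pairs) or the nearest gene (right, 67 pairs). The grey line marks equal values. Points on the left lie close to the line, with a median absolute difference of 0.28, and those on the right scatter more, with 0.86.

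The Pogo member called up with the smallest adjusted p, AT1TE09365 (ATHPOGON3, 771 bases, chr1:2886534-2887304), lies between AMI1, an amidase that converts indole-3-acetamide to auxin, and AT1G08985, annotated as an AP2/B3-like transcription factor family protein, and overlaps both rows. Its counts were 2 and 2 in WT, 217 and 197 in jas-3, 320, 246 and 161 in DMSO, 34, 47 and 31 in Aza1 eM2, and 225, 96, 186 and 87 in Aza1 eM3. WT was close to 0, Aza1 eM2 was intermediate, and neither overlapped another group. The log2 fold change of AT1TE09365 was 5.81 ± 0.55 for jas-3 against WT (adjusted p = 9.51e-06) and -2.39 ± 0.32 for Aza1 eM2 against DMSO (adjusted p = 1.02e-03). AT1G08985 moved with it, by 7.87 and -3.29 log2 units, whereas AMI1 had 1.80 and -0.06.

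AT4TE65510 (SIMPLEGUY1, Harbinger, 860 bases, chr4:13887249-13888108) overlaps an exon of AT4G27890, which encodes a protein of the HSP20-like chaperones superfamily. It had 2 and 2 counts in WT, 309 and 171 in jas-3, 419, 285 and 167 in DMSO, 12, 27 and 21 in Aza1 eM2, and 239, 59, 225 and 56 in Aza1 eM3. WT and Aza1 eM2 were low without overlap with the others, and the Aza1 eM3 libraries differed widely among themselves. The log2 fold change of AT4TE65510 was 6.00 ± 0.89 for jas-3 against WT (adjusted p = 3.26e-04) and -3.55 ± 0.55 for Aza1 eM2 against DMSO (adjusted p = 2.07e-03), compared with 6.96 and -3.76 for the gene. The call in Aza1 eM2 was lost without Aza1 eM2 replicate 1 (adjusted p = 0.0142) or replicate 3 (adjusted p = 0.0103). Only 59.5% of the windows of 100 bases in this member occurred once in the genome.

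AT4TE31745 (ATHAT3, 1515 bases, chr4:7292238-7293752) stood outside gene rows, on an annotated pseudogene 1336 bases from GAE5, an epimerase of UDP-glucuronate. Its counts were 0 and 0 in WT, 41 and 77 in jas-3, 70, 106 and 90 in DMSO, 18, 12 and 10 in Aza1 eM2, and 76, 40, 57 and 36 in Aza1 eM3. The order of the groups was that of AT1TE09365, again without overlap of WT or Aza1 eM2 with any other group. Against a floor of 3 counts per WT library, AT4TE31745 was at least 6-fold higher in jas-3 and at least 11-fold higher in DMSO. It fell in Aza1 eM2 against DMSO by a log2 fold change of 2.43 ± 0.41 (adjusted p = 4.18e-03), whereas GAE5 had 0.03 for jas-3 against WT and 0.02 for Aza1 eM2 against DMSO. This fall was no longer called without any 1 of the Aza1 eM2 libraries or without DMSO replicate 2 or 3, where the adjusted p for AT4TE31745 was 0.0101 to 0.0208.

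Other members called up in jas-3 were low in counts. AT5TE75910 (ATHPOGON2, chr5:21077121-21077349), which overlaps the defensin-like gene AT5G51845, had 0 and 0 counts in WT, 112 and 31 in jas-3, 47, 13 and 10 in DMSO, 0, 1 and 2 in Aza1 eM2, and 56, 11, 45 and 36 in Aza1 eM3. It was at least 5-fold higher in jas-3 than in WT (edgeR, adjusted p = 3.04e-03), and its log2 fold change for Aza1 eM2 against DMSO, -4.05 ± 1.01, did not pass (adjusted p = 0.0332). AT2TE34910 (HARBINGER, chr2:8379698-8381945), within AT2G19360, had 0 and 0 counts in WT, 22 and 50 in jas-3 and 62 to 79 in DMSO, and was at least 3-fold and at least 12-fold higher. The groups did not overlap for either member in these comparisons. Both calls in jas-3 were lost without either WT library, with adjusted p between 0.0126 and 0.0234, and that of AT5TE75910 also without jas-3 replicate 1 (adjusted p = 0.0185).

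AT1TE80690 (SIMPLEGUY1, in AT1G65985), AT1TE40265 (ATHATN2, 342 bases from AT1G34040) and AT5TE55105 (SIMPLEGUY1, 516 bases from AT5G38170) had 0 counts in both WT libraries. They were at least 5-fold, 3-fold and 2-fold higher in jas-3, with 28 and 75, 17 and 31, and 13 and 29 counts. AT1TE92240 (DT1, Mariner), in the DNA glycosylase family gene AT1G75090, had 3 and 0 counts in WT and 40 and 19 in jas-3. Its log2 fold change of 3.40 ± 0.83 (adjusted p = 8.09e-03) stood beside 3.24 for the gene. AT4TE54500 (TAG2, 67 bases, chr4:11782351-11782417) differed from its host: it had 0 and 3 counts in WT and 47 and 38 in jas-3, a log2 fold change of 3.90 ± 0.79 (adjusted p = 2.74e-03), while AT4G22285, a ubiquitin C-terminal hydrolase family gene, had 0.27 and was not called. The calls of AT1TE40265, AT4TE54500 and AT5TE55105 were each lost without at least 1 library. AT1TE80690 and AT1TE92240 lost theirs without WT replicate 2.

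The members lower in jas-3 formed clusters of neighbouring rows. AT5TE56565, AT5TE56570 and AT5TE56575, the neighbouring SIMPLEHAT1 and ATHAT1 rows whose outer ends are shown above (chr5:15639650-15641039), had 50 to 52 counts in WT replicate 1 and 68 in WT replicate 2. In the other 12 libraries each had 0, 1 or 2 counts. The log2 fold changes for jas-3 against WT were -6.54 ± 0.97, -7.38 ± 1.10 and -7.35 ± 1.10 (edgeR, adjusted p = 3.21e-04, 3.36e-04 and 3.55e-04). AT5TE56570 overlaps the pseudogene AT5G39070, and AT5G39080, the nearest gene row, had 0.55 ± 0.27 and was not called. The equal counts show that the 3 rows were not independent measurements.

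AT5TE56560, a TAG2 copy, precedes those rows on the chromosome (chr5:15636219-15639175). It had 64 and 96 counts in WT, 8 and 9 in jas-3, 6, 12 and 15 in DMSO, 7, 44 and 7 in Aza1 eM2, and 6, 12, 8 and 4 in Aza1 eM3. WT was highest, and 1 Aza1 eM2 library stood above the remaining ones. The log2 fold change of jas-3 against WT was -4.06 ± 0.81 (adjusted p = 2.45e-03). Only 23.8% of its windows were unique in the genome, and how reads with several placements were counted is not given in the sources used here. Without WT replicate 2, jas-3 replicate 1 or jas-3 replicate 2 the adjusted p of AT5TE56560 was 0.0193, 0.0345 and 0.0188.

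AT5TE37195, AT5TE37200 and AT5TE37205 (ATHATN10 and ATHAT10), adjoining rows of 33, 739 and 23 bases within AT5G28237, a pyridoxal phosphate-dependent enzyme gene, each had 16 and 56 counts in WT, 0 to 4 in jas-3, 2 to 4 in DMSO, 1 to 5 in Aza1 eM2 and 2 to 15 in Aza1 eM3. WT replicate 2 had more than 3 times the counts of replicate 1. The log2 fold changes for jas-3 against WT were -4.94, -4.40 and -4.94, and the gene had -4.61 (adjusted p = 0.0104). Without WT replicate 2, AT5TE37205 had -3.57 (adjusted p = 0.0787). At the neighbouring rows AT1TE51770 and AT1TE51775 (TAG2 and ATHAT1, chr1:15725500-15727426), WT had 12 and 10, and 54 and 17 counts, and both jas-3 libraries had 0. The pair was at least 6-fold and at least 10-fold lower in jas-3. This pair and the 3 rows within AT5G28237 all lost their calls without jas-3 replicate 1.

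The remaining members called down in jas-3 were AT4TE11395 (ATHATN4, 252 bases from the methionine sulfoxide reductase gene MSRB5), AT4TE80430 (SIMPLEGUY1, 327 bases from the O-methyltransferase family gene AT4G35160), AT3TE34715 (DT1) and AT1TE95910 (ATHATN7, within AST56, a sulfate transporter). Their log2 fold changes were -3.95 ± 0.73, -3.90 ± 0.76, -4.19 ± 0.90 and -2.89 ± 0.67. AT4TE11395 had 39 and 42 counts in WT and 3 and 6 in jas-3, and in the other libraries 6 to 25. AT4TE80430 had 15 and 29 in WT, 1 and 4 in jas-3 and 3 to 14 elsewhere. In both, WT did not overlap any other group. The calls of AT4TE11395, AT4TE80430, AT3TE34715 and AT1TE95910 were, however, lost without jas-3 replicate 1. The genes AT4G35160 and MSRB5 had -3.06 (called down) and -1.70.

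The 20 members called down in DMSO against WT formed 14 loci. Of these 20, 12 lay at least 500 bases from any gene, against 54 of all 206 tested members. An annotated pseudogene was overlapped by 8 of the 20, and the share over all tested members was not counted. Members called down here but not in jas-3 included the TAG2 copy AT1TE08240 (3331 bases), whose ends are shown above. It had 15 and 58 counts in WT, 2 and 8 in jas-3, 2, 2 and 6 in DMSO, 4, 33 and 4 in Aza1 eM2 and 2 to 6 in Aza1 eM3. The log2 fold change of AT1TE08240 was -4.22 ± 0.95 (edgeR, adjusted p = 3.85e-03). WT and Aza1 eM2 overlapped, and only 37.7% of its windows were unique. AT5TE43580 (ATIS112A, 3582 bases) had 22 and 25 counts in WT and at most 4 in any other library, a log2 fold change of -5.63 ± 1.28 (adjusted p = 3.98e-03). AT1TE73165 (ATTIRTA1, the only Tc1 member called in any comparison) had 44 and 37 counts in WT, 3 and 0 in jas-3, 2, 3 and 0 in DMSO, and 1 to 20 in the Aza1 libraries. Its log2 fold change was -5.24 ± 1.21 (adjusted p = 4.26e-03). The calls of AT1TE08240, AT5TE43580 and AT1TE73165 were all lost without WT replicate 2.

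DMSO and untreated jas-3 differed at 1 locus. AT4TE10035 and AT4TE10040 were called up, 2 of 206 members against 0.0588% of all rows, and no member was called down (0.0756% of all rows). Of the other TE rows 0.0321% were called up and 0% down, and at an unadjusted p below 0.05 there were 4 members higher and 7 lower. DESeq2 also called 2 up and 0 down. These ATHATN1 rows (chr4:2117281-2117776 and chr4:2117777-2117972) lie in 1 intron of RbcX1, a chaperone of Rubisco assembly. AT4TE10035 had 3 and 4 counts in WT, 14 and 8 in jas-3, 137, 93 and 146 in DMSO, 89, 59 and 124 in Aza1 eM2, and 89, 61, 111 and 83 in Aza1 eM3. The groups divided into WT and jas-3, which were low, and the 10 libraries of the DMSO and Aza1 plants, which were high. The log2 fold change of AT4TE10035 for DMSO against jas-3 was 3.57 ± 0.44 (adjusted p = 1.19e-03), and RbcX1 had 73 and 51, 136 and 97, and then 339 to 816 counts. Without either jas-3 library no member was called. Batch, descent and the solvent cannot be told apart here.

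**Figure D3:**
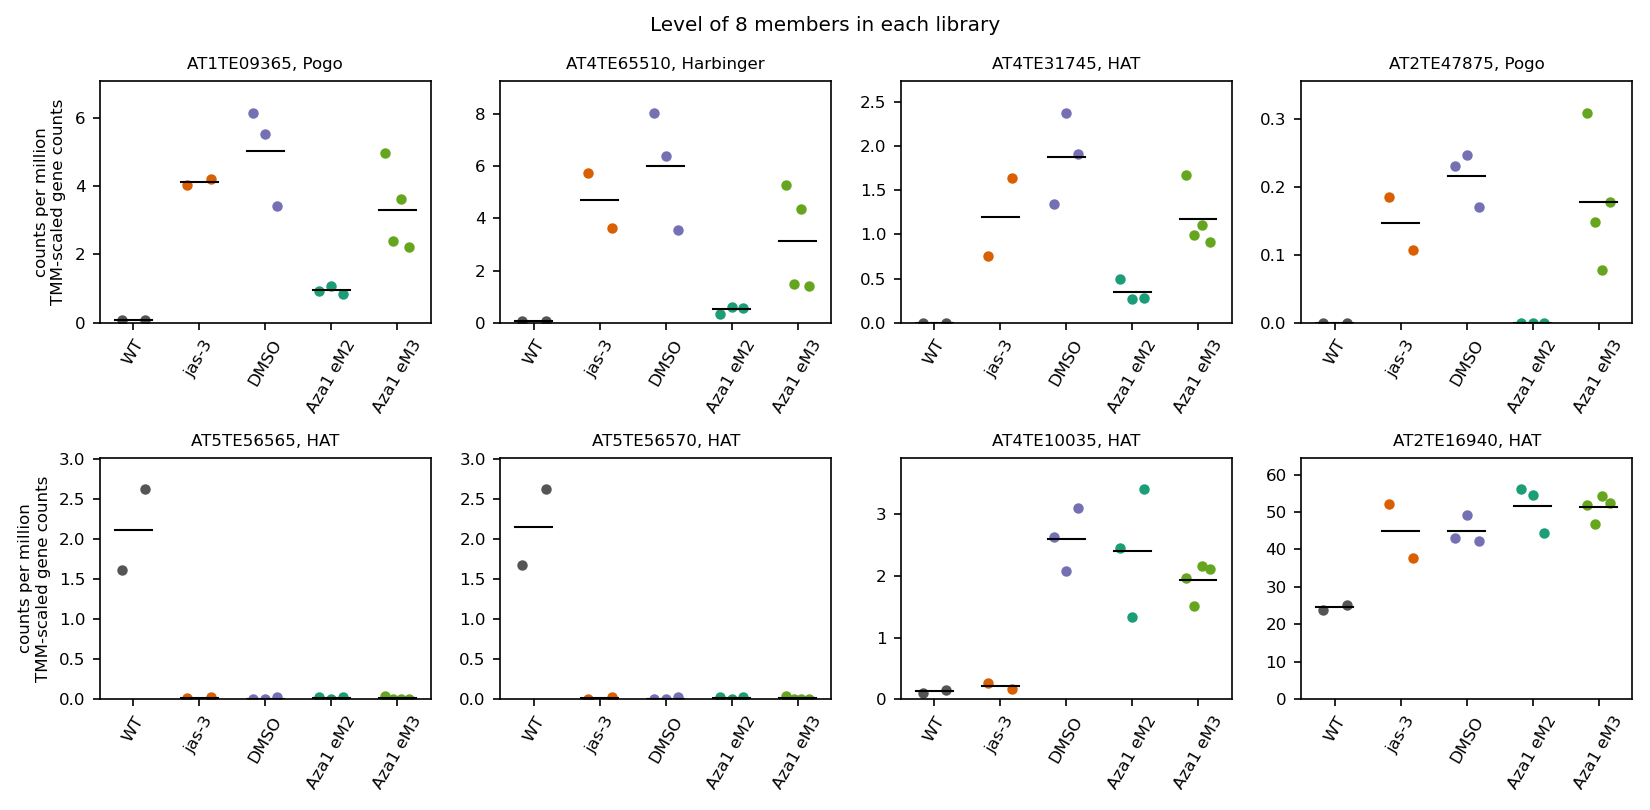
Level of 8 members in each library, in TMM-scaled CPM. Points are libraries and bars are group means. AT1TE09365, AT4TE65510, AT4TE31745 and AT2TE47875 are low in WT and Aza1 eM2, AT5TE56565 and AT5TE56570 are high in WT and at most 2 counts elsewhere, AT4TE10035 is high in DMSO and both Aza1 groups, and AT2TE16940 is lowest in WT.

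Aza1 eM2, which descends from 1 line treated with 5-Azacytidine, was compared with DMSO. With 1 treated line, the treatment cannot be told apart from line and descent. No member was called up (0.37% of all rows), and 4 were called down (2.16% of all rows), namely AT1TE09365, AT4TE65510, AT4TE31745 and AT2TE47875. Among the other TE rows 2.7% were called up and 4.34% down. At an unadjusted p below 0.05, 19 members were higher and 21 lower, and DESeq2 called 0 up and 8 down. The median log2 fold change of the 206 members was 0.15, and that of all rows 0. Leaving out Aza1 eM2 replicate 1 or 3 left 1 member called down, and leaving out Aza1 eM2 replicate 2 or DMSO replicate 2 or 3 left 2.

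The short Pogo member AT2TE47875 (ATHPOGON1, 60 bases, chr2:11098541-11098600) lies 52 bases from AT2G26050, a DUF1644 gene. It had 0 and 0 counts in WT, 10 and 5 in jas-3, 12, 11 and 8 in DMSO, 0, 0 and 0 in Aza1 eM2, and 14, 6, 4 and 7 in Aza1 eM3. WT and Aza1 eM2 were at 0 and the other groups were not. AT2TE47875 was at least 2-fold lower in Aza1 eM2 than in DMSO (edgeR, adjusted p = 7.95e-03), and AT2G26050 fell by 3.59 on the log2 scale and had 0 and 2 counts in WT and 452 and 241 in jas-3. The call of AT2TE47875 was lost without any 1 DMSO or Aza1 eM2 library (adjusted p = 0.0136 to 0.0278).

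The comparisons jas-3 against WT and Aza1 eM2 against DMSO share no library. Of the 10 members called up in jas-3, 9 had a lower level in Aza1 eM2 than in DMSO, 3 of them called, with a median log2 fold change of -1.79. Over all 206 members, 86 were lower and 119 higher. The exception was AT5TE55105, with 0.28. Of the 13 called down in jas-3, none was called in Aza1 eM2 against DMSO. Many of these 13 were at or near 0 in both groups, such as AT5TE56565 with 0, 0 and 1 counts in DMSO and 1, 0 and 1 in Aza1 eM2, so that no direction is read from them. Under gene totals 9 of the 10 called up in jas-3 were lower, and with the storage share as a covariate 6 of the 10. In these fits 120 of 199 and 105 of 206 of all members tested were lower. Among the other TE rows, 386 of 420 called up in jas-3 were lower in Aza1 eM2, and among genes 1348 of 1595. Of the other TE rows called down in jas-3, 52 of 90 were higher and 30 lower, and of such genes 374 of 441 were higher. The calls include neighbouring rows with shared counts, and the storage share also differed between DMSO (10.7 to 22.6%) and Aza1 eM2 (21.8 to 30.7%).

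**Figure D4:**
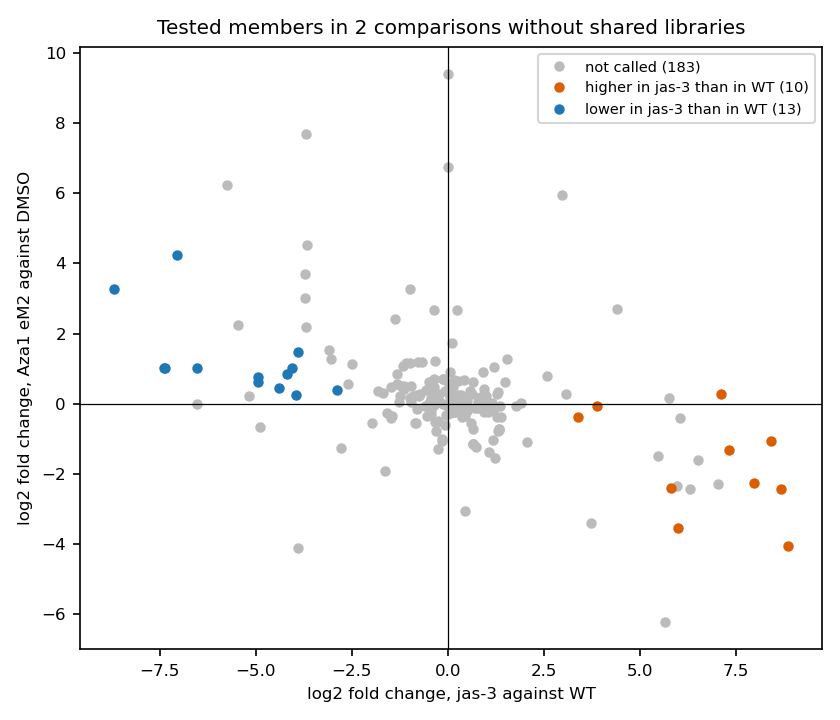
Log2 fold change of each of the 206 tested members for jas-3 against WT (horizontal axis) and for Aza1 eM2 against DMSO (vertical axis), which share no library. Orange points are the 10 members called up in jas-3, of which 9 lie below 0 on the vertical axis, and blue points are the 13 called down, many of which had few counts in DMSO and Aza1 eM2.

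In Aza1 eM3 no member was called against DMSO in either direction, and no row of the table was (0% of all rows and of the other TE rows). At an unadjusted p below 0.05 there were 14 members, 9 higher and 5 lower, and DESeq2 called 0. Against Aza1 eM2, again no member was called up (1.25% of all rows and 2.22% of the other TE rows) or down (0.33% and 2.51%) by edgeR, 35 members passed an unadjusted p below 0.05, and DESeq2 called 4 up and 1 down. Without Aza1 eM2 replicate 2 there were 3 called down, and without Aza1 eM3 replicate 2 or 4 there were 2 or 1 called up. AT1TE09365 was nearest to a call, with a log2 fold change of 1.79 ± 0.31 (adjusted p = 5.38e-03). AT4TE65510 had 2.62 ± 0.52 (adjusted p = 0.0119), AT2TE47875 5.94 ± 1.09 (adjusted p = 0.0131) and AT4TE31745 1.75 ± 0.40 (adjusted p = 0.0249), so that all 4 members called down in Aza1 eM2 had higher levels in Aza1 eM3, and none passed both thresholds. The comparison shares the Aza1 eM2 libraries with the preceding one.

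The test asks that the libraries of a group move together, and it does not describe members that were high in single Aza1 eM2 libraries. By a rule chosen after such counts had been seen, a member was noted where the highest library of a group had at least 20 counts and at least 3 times the TMM-scaled level of the highest library outside the group. In Aza1 eM2, 13 of the 2004 members met it (0.649%), 8 of them in 1 library alone, compared with 12 in WT, 0 in jas-3, 0 in DMSO and 1 in Aza1 eM3. The numbers for the 29185 other TEs were 360 in Aza1 eM2 (1.23%), 105 in WT, 23 in jas-3, 0 in DMSO and 42 in Aza1 eM3. These counts are a description, since the rule was drawn from these values.

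Aza1 eM2 replicate 2 held several of them. AT4TE04415 (ATIS112A, 3158 bases, chr4:860921-864078) had 59, 759 and 55 counts in Aza1 eM2 and 63 to 132 in the other groups. AT2TE48990 (HARBINGER, 856 bases, chr2:11327945-11328800) had 0, 266 and 1 counts in Aza1 eM2, 2 and 0 in WT, 0, 0 and 1 in DMSO, and 0, 0, 10 and 12 in Aza1 eM3. AT5TE49130 (ATHAT3, 3101 bases, chr5:13798312-13801412) had 2, 123 and 4 counts and 0 in the other 11 libraries. Replicate 2 was thus high alone.

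The TAG2 copies AT1TE18370 and AT1TE20315 had 18, 205 and 12, and 18, 195 and 10 counts in Aza1 eM2, and 4 to 22 elsewhere. Only 17.4% and 20.7% of their windows were unique, so that most windows in each copy occurred elsewhere in the genome as well. The inner ends of AT1TE20315 equalled those of AT1TE08240. Whether these copies share reads was not tested. AT2TE41170 (ATIS112A) had 2, 107 and 0 counts in Aza1 eM2 and 0 to 26 elsewhere.

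Replicates 1 and 3 shared another set. AT3TE67325 (ATHAT2, 3580 bases, chr3:16600733-16604312) had 98, 0 and 118 counts in Aza1 eM2 and 0 in the other 11 libraries, with all of its windows unique in the genome. Its log2 fold change against DMSO was 9.39 ± 2.58 and did not pass the test (edgeR, adjusted p = 0.117). AT5TE39590 (ATHAT2, 503 bases, chr5:10894253-10894755) had 32, 0 and 84 counts in Aza1 eM2 and 0 to 6 elsewhere, AT1TE29570 (HARBINGER, 2439 bases, chr1:9175323-9177761) had 96, 0 and 26 and 2 to 10 elsewhere, and AT4TE13070 (TAG2, 1669 bases, chr4:2790374-2792042) had 61, 0 and 6 and 0 elsewhere. In each of them replicate 2 was at 0.

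AT4TE54750 (HARBINGER, 4523 bases, chr4:11834129-11838651), whose ends are shown above, had 26, 10 and 0 counts against 0 in all but 1 of the other libraries, an Aza1 eM3 library with 2. AT3TE43080 (TAG2, in LBD26, a LOB-domain gene) had 22, 2 and 28 against at most 4 elsewhere, and AT1TE71770 (ATHATN3, in AT1G58602, a disease resistance gene with an NB-ARC domain) had 8, 8 and 41 against 1 to 12. Of the 13, AT4TE13070 and AT5TE49130 did not pass the filter on low counts, and none of the 11 tested was called in Aza1 eM2 against DMSO. Without the filter on low counts 11 members were called up in that comparison, and without Aza1 eM2 replicate 2 there were 2.

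The same library stood out in the sum over distant Harbinger members. The 217 members at least 500 bases from a gene summed to 13.7, 35.5 and 10.9 TMM-scaled CPM in Aza1 eM2 and to 11.4 to 16.5 in all other libraries. Replicate 2 stood above all of them, replicate 1 lay within their range and replicate 3 just below it. AT4TE04415 and AT2TE48990, described above, are among these 217.

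**Figure D5:**
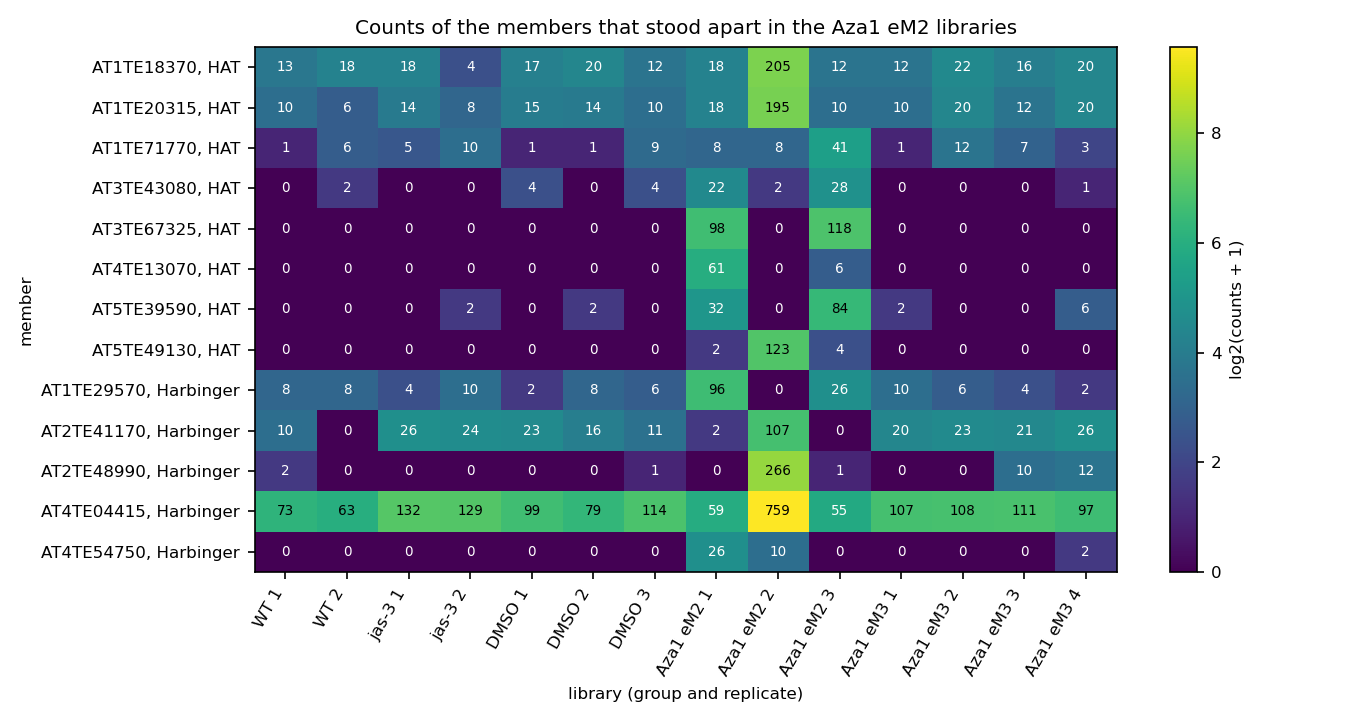
Counts (numbers) and log2(counts + 1) (colour) of the 13 members noted in Aza1 eM2, in each of the 14 libraries. AT2TE48990 and AT5TE49130 are high in replicate 2 alone (266 and 123 counts), whereas AT3TE67325 is at 98 and 118 in replicates 1 and 3 and at 0 in every other library.

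Several neighbouring rows held equal or nearly equal counts. Of 6 pairs of members within 1 intron, 5 had at least 20 counts in at least 1 member, and 4 of these had equal counts in 7 or more of the 14 libraries although their lengths differed. AT2TE06565 and AT2TE06570, of 803 and 29 bases, had 34 and 32 counts over all libraries and were equal in 13 of 14. Counts of 1 to 20 were even in 39.7 to 53.8% of member rows and in 73.7 to 79.0% of gene rows, and whether reads were paired, or how mates were counted, is not given in the sources used here. Whether members inside an intron share the reads of the unspliced intron was not tested.

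Genes that silence TEs were examined as a list of 14, which also held the DNA demethylase genes ROS1 and DME. In jas-3 against WT, 4 of 14 were called up (8.05% of all rows and 7.12% of genes) and 0 down (2.1% and 1.97%). Those called up were the maintenance methyltransferase gene MET1 (log2 fold change 2.67 ± 0.29, edgeR, adjusted p = 2.60e-05), the chromatin remodeller gene DDM1 (2.99 ± 0.34), the chromomethylase gene CMT3 (3.22 ± 0.26) and SUVH4 (2.39 ± 0.24), which encodes the H3K9 methyltransferase that CMT3 works with. AGO4, an Argonaute of RNA-directed DNA methylation, had -1.08 ± 0.19 (adjusted p = 9.90e-04), below the fold asked for. The median of the list was 0.20, against 0.09 for all rows. In Aza1 eM2 against DMSO 0 were called in either direction, and the de novo methyltransferase gene DRM2 had 0.49 ± 0.10 (adjusted p = 0.0108). MET1 and CMT3 had -0.08 and -0.22.

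The domesticated genes were not called in any comparison. DAYSLEEPER had 912 and 971 counts in WT, 2655 and 2200 in jas-3, 2880, 2333 and 2113 in DMSO, 1776 to 2233 in Aza1 eM2 and 1854 to 2881 in Aza1 eM3, and its log2 fold change for jas-3 against WT was 0.52 ± 0.15 (edgeR, adjusted p = 0.0173). AT3TE58855, the ATHAT3 row of 136 bases within its exon, had 0.29 ± 0.16 (adjusted p = 0.191). Its 177 and 162 counts in WT and 273 to 440 elsewhere make it one of the 3 HAT members of the highest mean level. ALP1 had 0.39 ± 0.19 (adjusted p = 0.135).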

How the data were processed

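Silique mRNA was counted in 14 libraries. According to the authors' methods, reads were mapped to the TAIR10 genome with STAR. The deposited tables hold whole-number counts for each gene, TE and intergenic interval in a library, with no scaling. DESeq2 is given as the counting tool, and how multiply aligned reads, strand and overlapping features were handled is not given in the sources used here. Members and gene lists were chosen with earlier results of these data known. The tests used edgeR 4.0.16 under R 4.3.3: rows passing filterByExpr by group, library size from gene counts with TMM factors (0.636 to 1.28) computed on genes, and the quasi-likelihood test (glmQLFit, glmQLFTest, two-sided) with group as the only factor in all 14 libraries. P-values were adjusted by the Benjamini-Hochberg method over 35718 rows (22412 genes, 3319 TEs, 9987 intergenic). Thresholds follow the study's methods. Sums were not tested. DESeq2 1.42.0, other scalings and filters, a storage covariate, a replicate block and omission of each library were the alternatives. The script was tested on simulated data. Python 3.11.15, pandas 2.3.3, numpy 2.4.6 and matplotlib 3.10.9 were used.

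Named members were the up to 8 called up and 8 called down with the smallest adjusted p in each contrast and the 3 of the highest mean level in each superfamily. Other members named were chosen after their values were seen. A lower bound of a fold compares the higher group's lowest TMM-scaled library with a floor of 3 counts per library, which covers counting error only. Chromosome lengths of the reference equalled those of the tables, and sequences and gene products come from RefSeq. Replicates differed by more than counting error (chi-square per degree of freedom 29.5 to 222). The labels call the WT, jas-3 and DMSO replicates biological and the Aza1 ones only replicates. By the study's account the Aza1 eM3 siliques came from different plants of the line, and for the other groups separate plants are not stated, so that p-values measure the spread between these samples.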

Additional observations from a re-analysis of the deposited data

Results flagged for a closer look

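In each group of 4 or more libraries, the gap between the highest or lowest level, in counts per 1000000 gene counts, and the nearest other level was divided by the range of the group. Of 41 such groups examined, 3 exceeded the critical value, with a ratio of 1 each: AT5TE56565, AT5TE56570 and AT5TE56575 in Aza1 eM3. All 3 had 2 counts in replicate 1 and 0 in the other 3 libraries, and they are neighbouring rows with shared counts. Chance flags about 1 in 20 groups.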

How the results depend on the processing

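Depth and unique placement limit these results: most members had few or no counts, and many named rows overlap genes or may share reads with copies. WT and jas-3 had only 2 libraries each. The rule for members high in single libraries, and the counts of directions under other fits, were chosen after seeing the data. For members called in jas-3 against WT (10 up, 13 down), gene totals gave 21 up, a minimum of 10 counts in every library 0 up and 0 down, no filter 20 down, the 2 groups alone 2 up and 8 down, the storage covariate 3 up and 0 down, an adjusted p below 0.05 with no minimum fold 31 up and 30 down, and members at least 500 bases from genes 2 up and 6 down. For DMSO against WT (14 up, 20 down), gene totals gave 24 up and 13 down, the 10-count minimum 1 up and 0 down, TE rows alone 13 down, the storage covariate 7 up and 0 down, the looser threshold 38 up and 41 down, and distant members 2 up and 12 down. The 2 members called up in DMSO against jas-3 became 0 with the 10-count minimum, with the groups alone and among distant members. For Aza1 eM2 against DMSO (0 up, 4 down), no filter gave 11 up and 8 down, DESeq2 8 down, the 10-count minimum 0 down, the storage covariate 1 down, the looser threshold 7 down, and distant members 1 down. For Aza1 eM3 against Aza1 eM2 (0 in either direction), DESeq2 gave 4 up and 1 down, no filter 5 up and 11 down, TE rows alone 3 up, and the looser threshold 7 up and 1 down. The cause of these changes was not tested, apart from the fewer rows tested under the 10-count minimum and among distant members.

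Leaving out 1 library at a time gave, for jas-3 against WT, 4 to 9 up and 3 to 10 down, for DMSO against WT 7 to 14 up and 3 to 18 down, for DMSO against jas-3 0 to 2 up and 0 down, for Aza1 eM2 against DMSO 0 to 2 up and 1 to 3 down, for Aza1 eM3 against Aza1 eM2 0 to 2 up and 0 to 3 down, and for Aza1 eM3 against DMSO 0.

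With the replicate number as a block, Aza1 eM2 against DMSO gave 2 down, where AT2TE47875 (edgeR, adjusted p = 0.0243) and AT4TE31745 (adjusted p = 0.0176) lost their calls, jas-3 against WT 9 up and 12 down, DMSO against WT 12 up and 15 down, and DMSO against jas-3 2 up. Same-numbered libraries correlated in their deviations by 0.13 to 0.43 for DMSO and jas-3 (2 pairs), -0.12 to 0.06 for Aza1 eM2 and DMSO, -0.24 to 0.17 for Aza1 eM3 and DMSO, and -0.16 to -0.13 for Aza1 eM3 and Aza1 eM2, so the numbers were not taken to pair the samples.

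The log2 ratios of summed levels for jas-3 against WT were, in CPM, then TMM-scaled, then with DESeq2 size factors, 0.92, 0.13 and 0.10 in HAT, 1.0, 0.22 and 0.19 in Harbinger, 0.12, -0.67 and -0.70 in Mariner, 1.34, 0.55 and 0.52 in Pogo, and -0.14, -0.92 and -0.96 in Tc1. Distant members alone gave 1.17 in HAT, -2.46 in Mariner, 0.44 in Pogo and 1.04 in Tc1, and without the member of the highest mean count the ratios were 0.65 in HAT, 0.044 in Mariner, 0.91 in Pogo and -0.36 in Tc1. For Aza1 eM2 against DMSO the 3 scales gave -0.11, 0.15 and 0.13 in HAT, -0.24, 0.022 and 0.0040 in Harbinger, 0.03, 0.30 and 0.29 in Mariner, -0.71, -0.43 and -0.45 in Pogo, and -0.25, 0.0062 and -0.0093 in Tc1. Distant members gave 0.035 in HAT, 0.56 in Harbinger, 0.35 in Mariner, 0.14 in Pogo and -0.76 in Tc1, and without the top member Mariner had -0.027 and Pogo -0.23. Omission of 1 library moved jas-3 against WT over 0.76 to 1.07 in HAT, 0.84 to 1.17 in Harbinger, 0.064 to 0.17 in Mariner, 1.29 to 1.38 in Pogo and -0.20 to -0.07 in Tc1, and Aza1 eM2 against DMSO over -0.25 to -0.03, -0.39 to -0.14, -0.062 to 0.16, -0.80 to -0.60 and -0.30 to -0.17 in the same order.

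Some single members changed sign. For Aza1 eM2 against DMSO, AT1TE78160 had -0.0076 with DESeq2, -0.0084 with its size factors, -0.24 with gene totals, -0.0051 with the groups alone, -0.0048 with the replicate block and -0.025 with the storage covariate. Gene totals also gave -0.042 for AT1TE32420, -0.053 for AT1TE32425, -0.051 for AT2TE16940 and -0.21 for AT4TE74475 in that contrast, and for jas-3 against WT 0.52 for AT1TE32420, 0.16 for AT2TE31000 and 0.34 for AT5TE44485. The storage covariate gave, for jas-3 against WT, -0.17 for AT1TE31385, 0.58 for AT4TE58010, 0.38 for AT5TE37205 and 0.85 for AT5TE44485, for DMSO against WT 0.052 for AT5TE37195, and for Aza1 eM2 against DMSO 0.16 for AT2TE31000, 0.11 for AT2TE71580, -0.24 for AT4TE48430, -0.16 for AT4TE58010 and -0.020 for AT5TE44485. Omission of 1 library spanned 0 for Aza1 eM2 against DMSO in AT1TE78160 (-0.11 to 0.14), AT2TE31000 (-0.21 to 0.081), AT2TE71580 (-0.47 to 0.015), AT2TE84800 (-0.10 to 0.48) and AT4TE74475 (-0.070 to 0.17), and for jas-3 against WT in AT5TE44485 (-0.74 to 0.047). Of the 38 calls of named members, 27 were lost with the storage covariate, and 11 of the 37 that could be refitted with the groups of the contrast alone. Counts divided by 2 reversed none.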
